A study of Rattus norvegicus with 15 samples.

Results

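The odorant receptor (OR) genes of rat chromosome 3 were examined in the olfactory epithelium, the sensory sheet that lines the back of the nose. The set was chosen by a rule on the array annotation: every probe, controls aside, with a gene name starting in Olr and a position on chromosome 3 of the rat genome build rn3. This gave 280 OR genes, each read by 1 probe of 60 bases. They stood among 1112 Olr-named probes on all chromosomes and 41012 probes on the array.

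Epithelia came from 8 untreated Brown Norway rats aged 6 weeks, 4 males (rats 1, 2, 5 and 6) and 4 females (rats 3, 4, 7 and 8). Each nostril, labelled A or B, was hybridised to its own array, and male 1 had nostril A alone, which gave 7 male and 8 female arrays. Neither side of the nose nor breeder was compared, as the labels tie A and B to no side and the rats to no supplier. Replication was between animals, and the array number limits the precision.

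OR genes encode G protein-coupled receptors of the olfactory sensory neurons, and each neuron expresses a single OR gene out of the whole repertoire. Bound odorant activates an adenylyl cyclase through a G protein, and cyclic AMP then opens a cation channel. The genes lie in clusters along the chromosomes. In the current nomenclature the number in a name gives the family and the letters give the subfamily, which groups receptors of similar sequence. In rodents, neurons choosing a given OR gene are confined to a zone of the epithelium, and the dorsal zone is marked by the quinone reductase Nqo1. In whole tissue, fewer neurons choosing a receptor and less RNA per neuron cannot be told apart.

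Through their accession numbers all 280 probes matched a gene of the RefSeq annotation of assembly GRCr8, and all 280 genes are placed on chromosome 3 there too. A family and subfamily could be read from 272 of the names. They fell into 8 families and 44 subfamilies, led by family 4 with 123 genes, family 5 with 64, family 8 with 32 and family 1 with 27. The genes formed 3 clusters on rn3. Cluster 1 held 32 genes over 1.37 Mb (chr3:15369932-16743223) and was made of families 1 and 12 and 1 gene of family 5. Cluster 2 held 210 genes over 6.17 Mb (chr3:68474576-74644292), with families 5, 8 and 9 towards its start and family 4 towards its end. Cluster 3 held 38 genes over 1.22 Mb (chr3:96692427-97911184), all of family 4. The median distance between neighbours was 33.1 kb in cluster 1, 22.3 kb in cluster 2 and 27.2 kb in cluster 3.

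Because OR genes resemble each other, the probes themselves decide which gene a signal belongs to. The pair with the most alike probes was also the brightest pair, Olr691 (Or4p18b, chr3:73508579-73508638, forward strand) and Olr629 (Or4p18, chr3:72202618-72202677, reverse strand). Their probes are shown 5′ to 3′, with capitals at the bases that differ when the sequences are laid over each other.

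Olr691: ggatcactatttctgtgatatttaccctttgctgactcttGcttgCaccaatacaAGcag
Olr629: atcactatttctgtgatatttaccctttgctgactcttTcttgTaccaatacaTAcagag

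These 2 probes differ at 4 of 58 shared positions, and how far either transcript binds the other probe was not tested. Their values correlated with r = 0.99 over the 15 arrays. In other alike pairs 1 probe was detected and the other was not. Olr526 (Or8h10, chr3:70113814-70113873) was detected on 15 arrays, while the probe of Olr530 (Or8h10c, chr3:70225826-70225885), which differs at 5 of 55 shared positions, was detected on 0. Likewise Olr668 (Or4c108b, chr3:73066624-73066683) was detected on 15 arrays and Olr665 (Or4c108, chr3:73010072-73010131), different at 4 of 48 shared positions, on 0, with r = 0.54 between the values of these 2 probes.

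Olr526: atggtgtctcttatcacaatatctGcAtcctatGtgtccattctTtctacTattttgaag
Olr530: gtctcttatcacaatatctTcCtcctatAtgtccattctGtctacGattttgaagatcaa
Olr668: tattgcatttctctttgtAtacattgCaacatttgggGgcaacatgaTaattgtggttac
Olr665: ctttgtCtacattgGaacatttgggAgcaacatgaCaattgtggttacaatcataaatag

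Capitals again mark the differing bases within each pair. Of the 280 probes, 10 had a match of at least 90% identity to another OR probe, 41 of at least 80% and 110 of at least 70%.

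The first question was how many of these genes the epithelium expresses. A probe was counted as detected on an array when the scanner software called its spot well above background, and as expressed when it was detected on at least 11 of the 15 arrays. By this rule 194 of the 280 OR genes (69.3%) were expressed, 32 (11.4%) were weakly expressed, detected on 1 to 10 arrays, and 54 (19.3%) were not expressed. Among the 832 OR genes of other chromosomes 63.7% were expressed, and among all 41012 probes 65.1%. Of the 280 genes 172 (61.4%) were above background on all 15 arrays, close to the 61.2% of all probes, against 52.8% of the OR genes of other chromosomes. The number detected on a single array ran from 186 in male 6A to 213 in male 2B and female 3B. The dimmest signal called above background was highest on the arrays of male 6, at -2.10 and -2.08 on the log2 scale relative to the array median, and lowest on female 4B at -2.96.

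The share expressed varied by family. Family 4, the largest, had 100 of 123 genes expressed (81.3%), with 13 of 13 in subfamily 4K, 18 of 21 in 4A, 35 of 44 in 4C and 17 of 22 in 4F. Family 5 had 44 of 64 expressed (68.8%), with 6 of 6 in 5T but 2 of 7 in 5D. Family 8 had 18 of 32 (56.3%) and family 1 had 13 of 27 (48.1%), where 1N had 0 of 3. The probes of the expressed and of the weakly or not expressed genes had similar base composition, with a median GC content of 38.3% for the expressed, 36.7% for the weakly expressed and 36.7% for the not expressed genes.

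**Figure D1:**
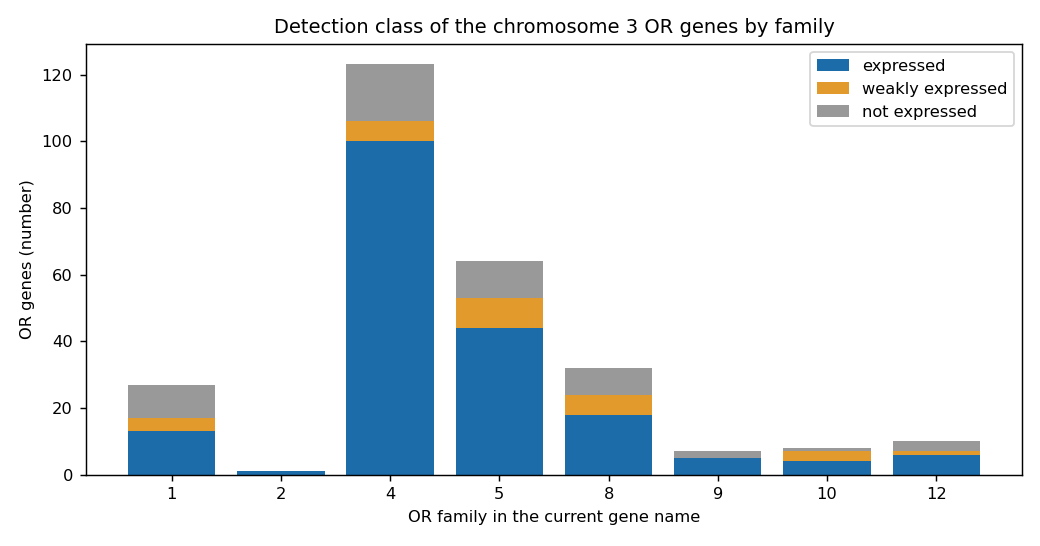
Number of chromosome 3 OR genes (vertical axis) by the family in their current name (horizontal axis), with bars divided into expressed, weakly expressed and not expressed genes. Family 4 is the largest with 123 genes, 100 of them expressed, and family 1 has more genes outside the expressed class (14) than in it (13).

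By position, 17 of 32 genes were expressed in cluster 1, 146 of 210 in cluster 2 and 31 of 38 in cluster 3. The longest run of neighbours that were all expressed covered 16 genes of cluster 3, from Olr760 (Or4k42b) to Olr781 (Or4f57), over 482 kb. The next held 15 genes of subfamilies 4A, 4C and 4X in cluster 2, from Olr715 (Or4a77) to Olr735 (Or4x5), over 424 kb. Runs of genes that were not expressed were shorter, in a class that was also smaller (54 genes against 194). The longest held 6 genes, Olr473 (Or5m3) to Olr480 (Or5al1), and the next 5 genes of cluster 1, Olr414 (Or1n1) to Olr418 (Or1l8). The run of 6 was followed directly by 6 expressed genes, Olr481 to Olr486. Of 277 pairs of adjacent genes, 142 were both expressed, 35 were both outside the expressed class and 100 were split. Whether this differs from a random order of the classes was not tested. At the cluster ends, Olr395 (Or1j13b) and Olr747 (Or4f52) were not expressed, Olr434 (Or5c1), Olr436 (Or5ak4) and Olr745 (Or4x13) were detected on all 15 arrays, and Olr796 (Or4f60) on 11.

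**Figure D2:**
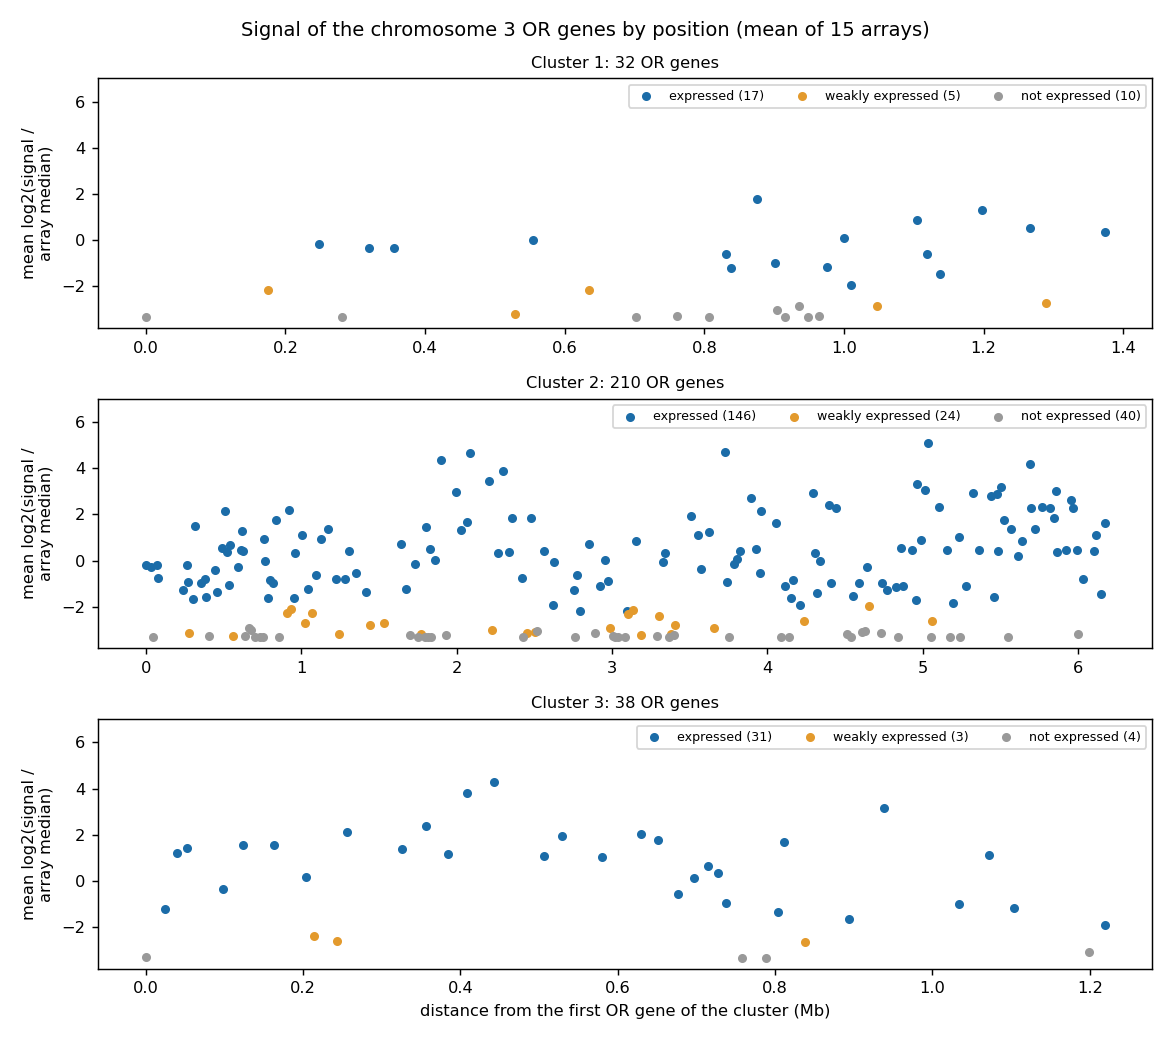
Mean log2 signal over 15 arrays relative to the array median (vertical axis) against distance in Mb from the first OR gene of each cluster (horizontal axis), 1 point per gene coloured by detection class. Expressed genes run along all 3 clusters, weakly expressed and not expressed genes lie between them, and the highest mean is 5.10.

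Levels are given as log2 of the signal over the median signal of the same array, so 0 is the signal of the median probe. The mean over the arrays of the 194 expressed genes had a median of 0.38. The highest was 5.10, for Olr691. The 10 OR genes with the highest mean signal were Olr691 (5.10), Olr629 (4.72), Olr546 (Or5aq1d, 4.67), Olr540 (Or5aq1, 4.34), Olr771 (Or4k50, 4.27), Olr720 (Or4a47, 4.19), Olr554 (Or12e1, 3.86), Olr769 (Or4k48, 3.80), Olr550 (Or5aq1b, 3.46) and Olr687 (Or4c121, 3.31). Probes differ in binding, so this order is one of signals and not of transcript amounts. In Olr691 the rat means were 4.36, 5.22, 5.29 and 4.95 in males 1, 2, 5 and 6, and 5.39, 4.77, 5.36 and 5.06 in females 3, 4, 7 and 8. The sexes overlapped.

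The weakly expressed genes sat at the limit of detection, with means from -3.24 to -1.97. Closest below the limit of 11 arrays were Olr404 (Or1j16) with 9 arrays and Olr493 (Or8k23), Olr601 (Or5l13), Olr607 (Or5d14) and Olr672 (Or4c112) with 8. Closest above it, at 11 arrays, were Olr455 (Or9g3), Olr578 (Or5w12), Olr597 (Or5w19), Olr686 (Or4c120), Olr698 (Or4a15b) and Olr796 (Or4f60). The rat means of Olr601 spread widely. It was at -1.19 in male 1, between -2.77 and -2.50 in the other males, and between -3.02 and -1.31 in the females. Nostrils of one rat often fell on different sides of the limit, from 11 genes in female 7 to 22 in male 5. Of 5 genes negative on exactly 2 of the 14 paired arrays, and 4 positive on exactly 2, 0 had both of those arrays from the same rat. Over all its probes the study reported such arrays to come from one rat more often than at random. The genes here were too few to compare with that, and no share over all probes stands beside these counts. Of the 54 genes detected on 1 to 14 arrays, 42 were detected on a larger share of the female arrays and 12 of the male arrays. The share leaning to females was 77.8% here, 73% among OR genes of other chromosomes and 65.8% among all probes detected on 1 to 14 arrays. The median male array had 193 of the OR genes above background and the median female array 202.5. There were 10 genes above background on female arrays alone, on at most 3 of them (3.57%, against 3.52% of all probes), and 2 on a single male array alone (0.714% against 2.12%).

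The study had designed PCR primers for 17 of these OR genes. On the arrays 16 of the 17 were expressed and 1, Olr500 (Or8k25), was weakly expressed, with 2 arrays above background. Their mean signals ran from -2.70 in Olr500 to 4.19 in Olr720. Among the others, Olr448 (Or5g25) was detected on 13 arrays, and Olr413 (Or1j4), Olr428 (Or1l4), Olr434, Olr461 (Or2ah1), Olr484 (Or8j3), Olr485 (Or8k1), Olr529 (Or8h9), Olr554, Olr646 (Or4c102), Olr649 (Or4s2), Olr717 (Or4a77d), Olr718 (Or4a81), Olr720, Olr769 and Olr781 on all 15.

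Markers of olfactory neurons were high on every array. Among 12 genes of mature olfactory sensory neurons 10 were on the array and 9 were detected on all 15 arrays, while Rtp2 was above background on 1. The olfactory marker protein gene Omp ran between 7.34 and 7.69. Of the genes that carry the receptor signal, choose receptors or bring them to the cilia, 27 of 33 listed were on the array and 25 were detected on all 15 arrays. Of their 35 tested probes 0 passed 1% with limma between sexes, rats of one sex or nostrils. Markers of supporting cells and glands ran over similar or smaller ranges, with a median range over the arrays of 0.49 for 6 sustentacular probes and 0.29 for 2 Bowman gland probes, against 0.57 for 12 probes of mature neurons. The markers of red cells, glia and bone that were detected on all arrays varied more. The red cell gene Alas2 ran from 4.38 to 9.69, the glial gene Fabp7 from 6.51 to 8.75 and the bone gene Ibsp from 6.96 to 9.21. The glial gene S100b and the bone gene Sp7 were above background on 0 arrays. Acta1 and Ckm of skeletal muscle were each above background on 2, with their highest values, 1.93 and 2.90, in female 7A. The 3 red cell genes on the array summed to between 59.3 and 1416 times the array median, and 2 of their 3 tested probes, those of Hbb and Alas2, differed between rats at 1% with limma. With slide as a block neither passed, at an adjusted p of 0.0779 and 0.0529. Trpc2, the channel of vomeronasal neurons, was at 2.37 in male 1A and between 0.10 and 1.15 on the other arrays. The other vomeronasal probes peaked elsewhere, the second of Trpc2, above background on 6 arrays, in female 4A and those of Gnao1 in females 4B and 3B. Of the 3 tested vomeronasal probes 2, for Trpc2 and Gnao1, differed between rats at 1% with limma. In the fit with slide as a block, limited to those pairs of rats, their adjusted p from limma were 0.0185 and 0.467. The part of these cells in the results below was not tested.

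The OR genes did not vary as 1 block. When each of the 172 genes detected on all 15 arrays was taken relative to its own mean, a single component held 43.8% of the variance and the next 17.7%. In that leading component 102 genes went one way and 70 the other. The sides went partly with family names, which did not enter the calculation. Of family 5, 37 of 40 genes were on the first side, as were 12 of 14 of family 8, 4 of 4 of family 9 and 9 of 11 of family 1. Of family 4, 57 of 90 were on the second side, where subfamilies 4C and 4P had 28 of 37 genes and 4F and 4K had 19 of 29. The remaining family 4 genes included 3 of 3 of subfamily 4B and 4 of 4 of 4X, which went with the first side. Subfamily 4A was split, with 7 genes on the first side and 8 on the second. The 439 OR genes of other chromosomes detected on all arrays had the same leading axis, with array scores correlating at r = 0.97, so the axis was not particular to chromosome 3.

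**Figure D3:**
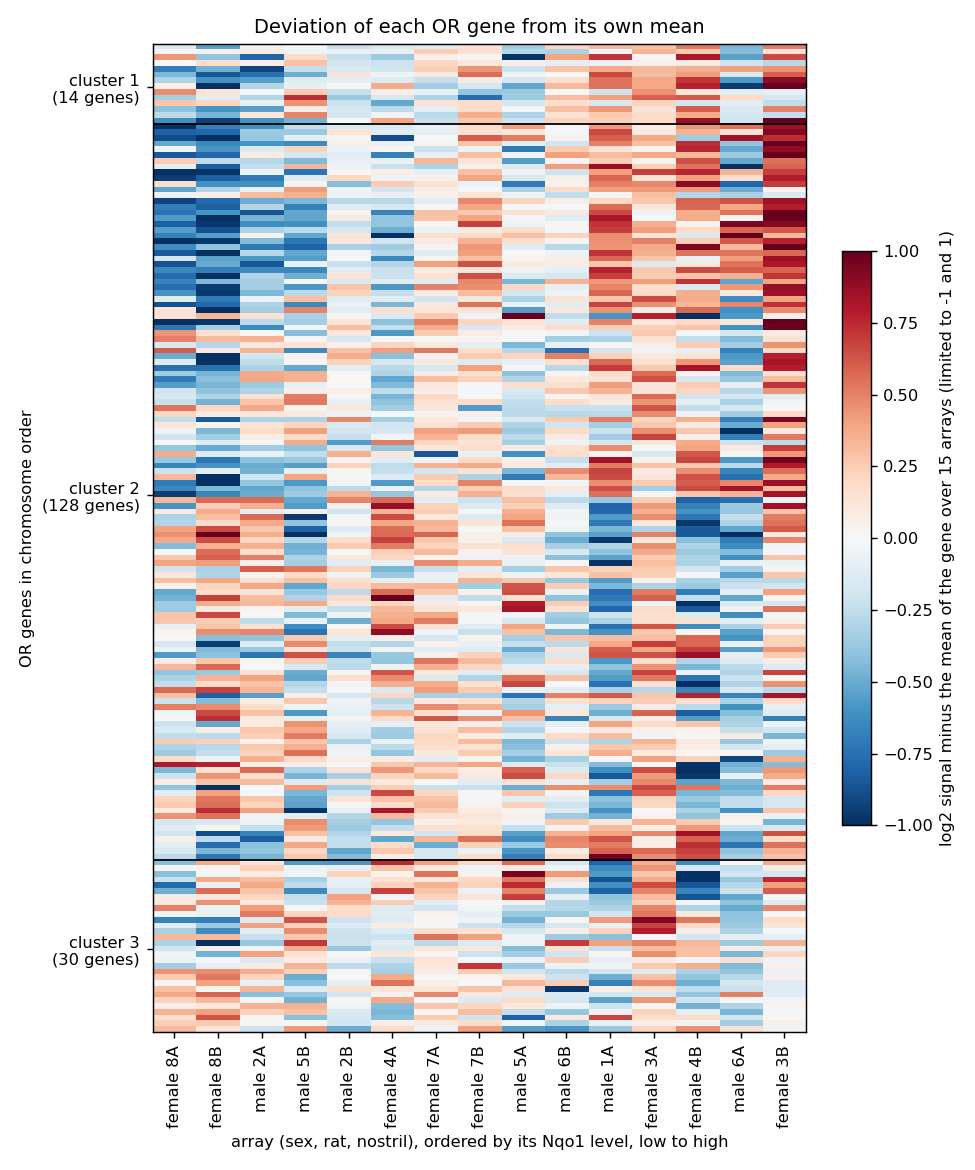
Deviation of each of 172 OR genes from its own mean on the log2 scale (colour, limited to -1 and 1), with genes in chromosome order down the vertical axis and the 15 arrays along the horizontal axis in order of their Nqo1 level. The upper part of cluster 2 goes from low to high across the arrays in the order of Nqo1, and many genes of its lower part go the other way.

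By their scores on this axis, females 8B (-0.52) and 8A (-0.29) were at one end and male 1A (0.42), female 4B (0.41) and female 3B (0.35) at the other. The family medians ordered the arrays somewhat differently. The median deviation of the 54 genes of families 5 and 8 was lowest in female 8B at -0.67 and female 8A at -0.61, and highest in female 3B at 0.73 and male 1A at 0.46. For the 90 genes of family 4 it was lowest in male 1A at -0.33 and male 6A at -0.32, and highest in female 3A at 0.28 and female 8B at 0.21. Male 6A and female 3A had scores near the middle, at 0.05 and 0.09. The difference could lie between the nostrils of 1 rat. In female 4, nostril A was at -0.26 for families 5 and 8 and at 0.14 for family 4, whereas nostril B was at 0.34 and -0.25. In female 8 both nostrils were low for families 5 and 8.

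Nqo1, the marker of the dorsal zone, varied with the same axis. It was chosen after the values had been seen. Its level was lowest in female 8A at 3.11 and female 8B at 3.12 and highest in female 3B at 4.38 and male 6A at 4.29. Over the 15 arrays the median deviation of families 5 and 8 correlated with Nqo1 at r = 0.84, and that of family 4 at r = -0.42. Over the 8 rat means these values were 0.83 and -0.32, over the 7 differences between nostrils 0.89 and -0.84, and relative to the mean of each slide 0.85 and -0.32. Other groups on the first side went with Nqo1 over the arrays but little or not between nostrils. Family 1 gave 0.72 over the arrays and 0.21 over the nostril differences, and family 9 gave 0.55 and -0.01. Subfamily 4B gave 0.44 and -0.40, and 4X gave 0.49 and -0.24. Over the 15 arrays Omacs (Acsm4), a second gene of the dorsal zone, gave r = 0.88 for families 5 and 8 and r = -0.53 for family 4. Omp gave r = 0.35 and r = 0.36 over the arrays, and over the 7 differences between nostrils r = -0.30 for families 5 and 8 and r = 0.74 for family 4. Ncam2, an adhesion molecule of the zones other than the dorsal one, had 2 probes detected on all arrays, and they differed. The first gave r = -0.16 for families 5 and 8 and r = 0.79 for family 4 over the arrays, and r = -0.79 and r = 0.99 over the nostril differences. The second gave r = 0.26 and r = 0.28 over the arrays, and r = -0.01 and r = 0.28 over the nostril differences. With Nqo1 itself the 2 probes had r = -0.09 and r = -0.15 over the arrays, and r = -0.89 and r = -0.35 over the nostril differences. These are descriptions over arrays that share animals, slides and array medians, and the part of dissection, neuron number or zone in them was not tested. The Trpc2 probe that was highest in male 1A correlated with families 5 and 8 at r = 0.66 and with family 4 at r = -0.46. The Gnao1 probes gave r = 0.51 and r = 0.56 with families 5 and 8, and r = 0.14 and r = 0.24 with family 4.

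**Figure D4:**
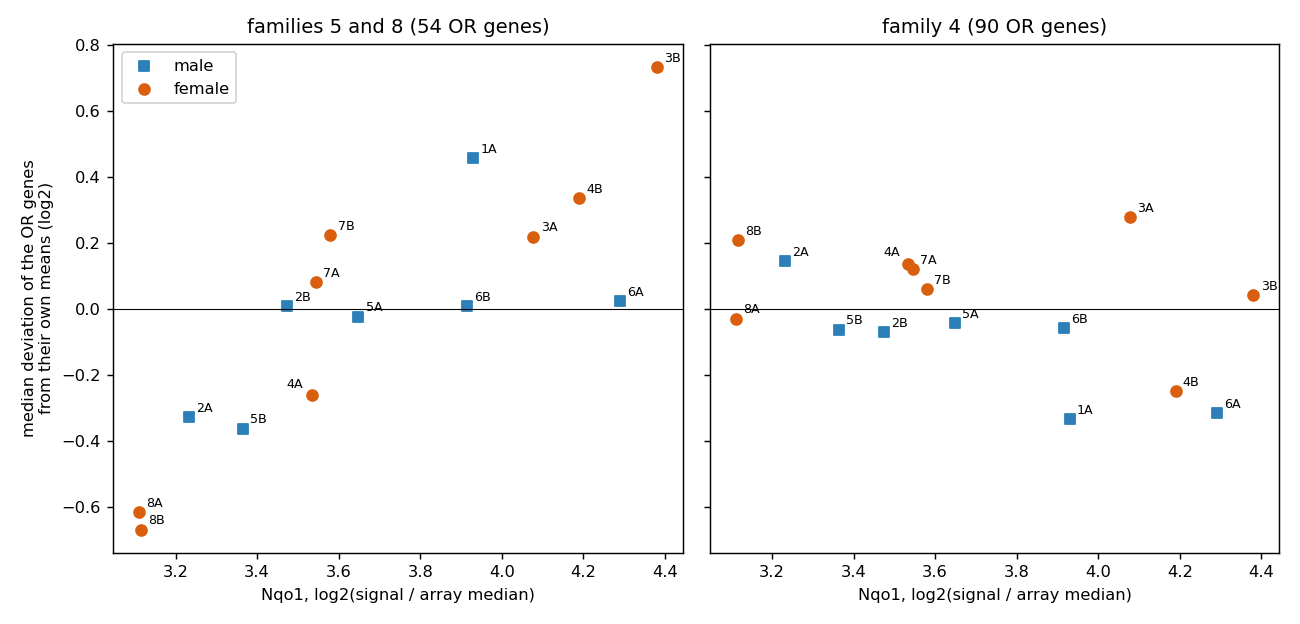
Median deviation on the log2 scale of 54 genes of families 5 and 8 (left) and of 90 genes of family 4 (right) against the Nqo1 level, log2 of signal over array median, with 1 point per array labelled by rat and nostril and coloured by sex. The left points rise from -0.67 in 8B to 0.73 in 3B, and the right points run with a weaker downward slope.

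Among single genes, Nqo1 correlated most highly with Olr462 (Or5ar1, r = 0.92) and most negatively with Olr718 (Or4a81, r = -0.82). Olr462 was at 1.24 and 1.37 in females 8A and 8B, at 3.01 in female 3B and between 1.66 and 2.79 on the other arrays. Olr718 was at 1.65 and 1.62 in females 8A and 8B, at -0.13 in female 4B and between 0.38 and 1.25 elsewhere. So both nostrils of female 8 were lowest for the one and highest for the other. Of the 172 genes 53 (30.8%) had r above 0.5 with Nqo1 and 20 (11.6%) below -0.5. Among all 25084 probes other than Nqo1 detected on every array these shares were 6.70% and 5.77%, and among the OR genes of other chromosomes 35.5% and 9.79%. The probes of both extreme genes are shown with those of Olr609 and Olr619, which face each other across the change of sign in cluster 2.

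Olr462: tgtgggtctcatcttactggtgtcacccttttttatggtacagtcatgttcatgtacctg
Olr609: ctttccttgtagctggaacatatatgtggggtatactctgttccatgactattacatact
Olr619: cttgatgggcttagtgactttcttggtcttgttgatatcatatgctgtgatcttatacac
Olr718: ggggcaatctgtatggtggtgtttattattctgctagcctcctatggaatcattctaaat

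These 4 probes lie at chr3:68984463-68984522 (reverse strand), chr3:71812620-71812679 (reverse strand), chr3:71986153-71986212 (forward strand) and chr3:74110997-74111056 (reverse strand).

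Along cluster 2 the sign changed with position. In the first Mb, from Olr436 to Olr496, the 28 genes detected on all arrays had a median r with Nqo1 of 0.76, and 27 of 28 were positive. The median was 0.42 over 17 genes of the second Mb, 0.27 over 17 of the third and -0.31 over 16 of the fourth, where 12 of 16 were negative. It stayed at -0.14 and -0.20 in the next 2 windows, of 18 and 28 genes. It was 0.47 in the last 4 genes, Olr737 to Olr745, of subfamilies 4B and 4X. All these medians are over the arrays. Over the 7 nostril differences the median r with Nqo1 was -0.30 for the 3 genes of 4B, with 2 negative. It was -0.13 for the 4 genes of 4X, all negative, some of which lie in the window before. Over the arrays, cluster 1 had a median of 0.47 over 14 genes and cluster 3 of -0.20 over 30. The turn in cluster 2 fell where family 5 gives way to family 4. Olr609 (Or5d20) had r = 0.78 with Nqo1 and Olr619 (Or4p7), the next gene detected on all arrays, 174 kb away, r = -0.62. With each other they gave r = -0.49.

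Neighbouring OR genes varied together more closely than distant ones. Over 151 pairs less than 50 kb apart, the median r across the 15 arrays was 0.65 (quartiles 0.36 and 0.79), and 89.4% of pairs were positive. It was 0.44 for 521 pairs at 50 to 200 kb, 0.28 for 2135 pairs at 0.2 to 1 Mb, 0.13 for 3076 pairs at 1 to 3 Mb and -0.05 for 2771 pairs at 3 to 7 Mb. Pairs in different clusters had a median of 0.08. OR genes of other chromosomes gave 0.64 for 262 pairs under 50 kb, and neighbouring probes of genes other than OR genes 0.16 for 36018 pairs. The closeness was thus not particular to chromosome 3.

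The closeness was similar whether or not the neighbours were of one subfamily. Under 50 kb the median was 0.65 in 91 pairs of the same subfamily and 0.65 in 60 pairs of different subfamilies, and 0.44 in 23 pairs of different families. In 141 pairs under 50 kb with probes less than 60% identical it was 0.65. Olr462 (Or5ar1) and Olr463 (Or5ap2), 10.3 kb apart, had r = 0.94, as did Olr742 (Or4b13b) and Olr745 (Or4x13), 56.0 kb apart. Exceptions stood beside these. Olr461 (Or2ah1) and Olr462, 21 kb apart, had r = -0.43, and Olr695 (Or4c124b) and Olr696 (Or4c125), 51.2 kb apart and of one subfamily, had r = -0.60. The pairs share genes and arrays and are not independent.

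**Figure D5:**
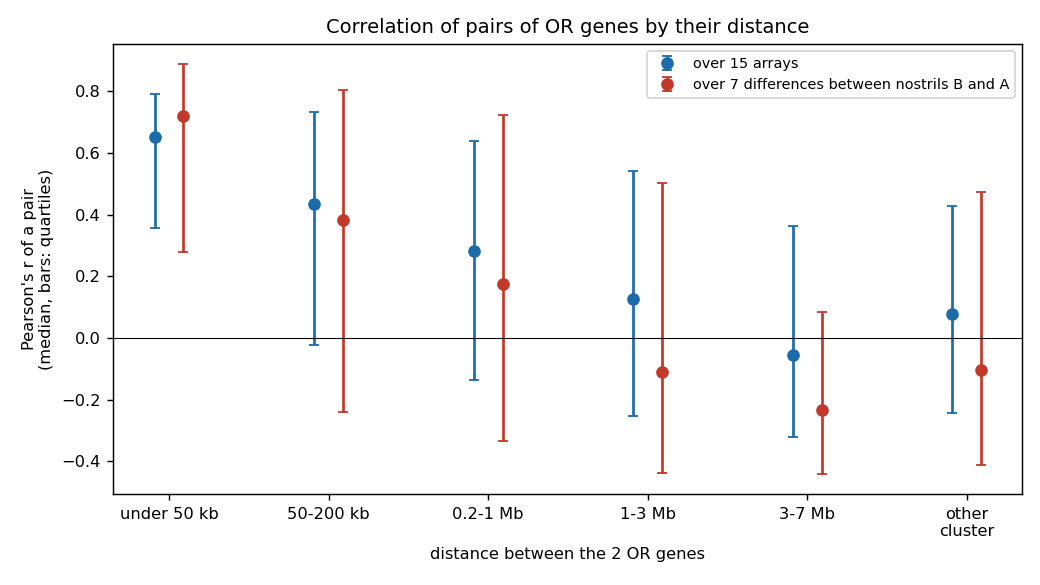
Pearson's r of pairs of OR genes (vertical axis, median with quartiles as bars) in 6 classes of distance (horizontal axis), over 15 arrays and over the 7 differences between nostrils B and A of one rat. Both series fall from above 0.6 under 50 kb to below 0 at 3 to 7 Mb.

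The same decline was seen between the nostrils of a rat, where animal and sex are the same. Slide was the same too, except in female 3, with nostril A on slide 1 and nostril B on slide 2. Over the 7 differences the median r was 0.72 under 50 kb, 0.38 at 50 to 200 kb, 0.18 at 0.2 to 1 Mb, -0.11 at 1 to 3 Mb and -0.23 at 3 to 7 Mb. Relative to the mean of each slide it was 0.74 under 50 kb and -0.03 at 3 to 7 Mb.

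The spread of the OR genes was large against that of other genes. The SD over the 8 rat means had a median of 0.35 over the 200 tested OR genes, that is those detected on at least 7 arrays, against 0.16 over all tested probes. The SD between the nostrils of one rat was 0.37 against 0.12. The same medians in the 563 tested OR genes of other chromosomes were 0.34 and 0.36. A rat mean averages 2 nostrils, except in male 1, so these SDs are not of like quantities.

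The comparison of sexes asked whether OR genes are used differently by males and females. Rat means were compared with limma at a false discovery rate of 1%, and 0 of the 200 tested OR genes passed, where 0.0434% of all 27625 probes did. At an unadjusted p under 0.05 there were 27 OR genes (13.5%), against 17.1% of all probes. Without male 2 there were 41 (20.5%), against 16.6%. Of the 27, 25 were higher in females (12.5% of the tested OR genes), where 12.2% of all probes were. The median difference, female minus male, was 0.12 over the OR genes and 0.01 over all probes. It was 0.02 over the OR genes without female 3, 0.07 without male 6, 0.08 without male 2 or without female 4, and 0.21 without female 8, and 0.05 with normexp background. In 7 of the 200 the rats of the sexes did not overlap, or 3.5%, against 11.3% of all probes. The methods' t-test gave 0 OR genes after Benjamini-Hochberg adjustment and 16 at an unadjusted p under 0.05 (8%, against 16.2% of all probes). Slide 1 was the one slide with both sexes, and on the other 3 slide and sex cannot be told apart. With slide as a fixed block the sex term therefore rests on slide 1, that is on female 3A alone against males 1A, 2A and 2B. The median difference was then 0.29 over the OR genes and 0.06 over all probes, which describes 1 female array and not the sexes.

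The 4 genes with the smallest p higher in females were Olr662, Olr712, Olr792 and Olr661. Olr662 (Or4c29) was at -1.26, -1.32, -1.07 and -1.20 in males 1, 2, 5 and 6 and at -0.85, -0.68, -0.70 and -0.69 in females 3, 4, 7 and 8. All females were above all males, by 0.48 ± 0.10 in the means (limma's moderated SE, as for the other differences here, n = 4 rats per sex), and the adjusted p from limma was 0.105. Olr712 (Or4a78) had males at 2.86, 3.03, 3.08 and 2.87 and females at 3.32, 3.18, 3.42 and 3.42, which again did not overlap. Its difference was 0.37 ± 0.08 with an adjusted p from limma of 0.106. Olr792 (Or4f47) and Olr661 (Or4p8), both 0.46 higher in the female mean, also had no overlap. Olr661 and Olr662 are neighbours 10.4 kb apart.

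Towards males the 4 smallest p belonged to Olr711 (Or4a77b), Olr641 (Or4c129), Olr715 (Or4a77) and Olr471 (Or5m5). Olr711 was at 0.72, 0.45, 0.62 and 0.55 in the males and 0.17, 0.23, 0.55 and 0.15 in the females, so that female 7 reached the males. Its difference was -0.31 ± 0.11 with an adjusted p from limma of 0.21. The other 3 differed by -0.33, -0.26 and -0.48, with adjusted p from limma between 0.23 and 0.35. None of these 8 genes thus passed the threshold. The size of some depended on the setting. With normexp background Olr662 differed by 0.17 and Olr792 by 0.17. With slide as a fixed block Olr661 differed by 0.25, Olr711 by -0.16, Olr641 by -0.09, Olr715 by -0.10 and Olr471 by -0.07. These values with slide as a block rest on female 3A alone among the females. They describe that array and cannot give the size of a sex difference.

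Rats of the same sex were compared next with limma, with the nostrils as repeats, to ask whether animals of one strain differ in their OR genes. At 1%, 0 of the 200 OR genes passed, where 2.79% of all 27574 probes did. At 5%, 14 OR genes passed (7.00%), against 16.1%. At an unadjusted p under 0.05 there were 52 (26.0%) against 37.1%. Without female 8 these counts were 3 and 17, with 9.3% and 32.3% of all probes, and without female 7 they were 4 and 49, with 7.11% and 31.1%. With slide as a block 0 passed at 1%, where 0.00363% of probes did, 0 passed at 5%, where 0.116% of probes did and the lowest adjusted p of an OR gene was 0.106, and 44 at an unadjusted p under 0.05 against 17.1%. Male 1 had 1 array and added none to the estimate of the spread between nostrils.

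The highest F values went to Olr695, Olr772 (Or4k51), Olr640 (Or4c31e), Olr453 (Or5g9), Olr491 (Or8k22) and Olr778 (Or4f56). Olr695 had an F of 10.4 and an adjusted p from limma of 0.0156. Its rat means were 2.00, 2.49, 2.18 and 2.20 in males 1, 2, 5 and 6 and 2.05, 1.92, 2.67 and 2.96 in females 3, 4, 7 and 8, so females 7 and 8, the rats of slide 4, stood above the rest. Olr491 went the other way in female 8. It was at 2.88, 2.11, 1.88 and 2.28 in the males and at 2.67, 2.23, 2.59 and 1.22 in the females, with an F of 7.54 and an adjusted p from limma of 0.0288. Olr453 had its lowest value, -2.04, in female 8 too, against -1.37 to -0.30 in the other 7 rats. The correlation with Nqo1 over the arrays was -0.77 for Olr695, 0.83 for Olr453 and 0.76 for Olr491.

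Among the 200 tested genes the widest ranges of rat means, up to 1.83, were in Olr601, Olr453, Olr482 (Or8u9), Olr491, Olr493 and Olr472 (Or5m8). In Olr482 the males were at 0.69, -0.19, -0.29 and 0.21 and the females at 0.43, 0.10, 0.11 and -0.97. In Olr472 they were at 0.87, 0.25, 0.13 and 0.73, and at 1.05, 0.43, 0.62 and -0.59. Both were lowest in female 8, and in all 6 of these genes female 8 was the lowest rat.

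Between nostrils A and B within a rat, 0 of the 200 OR genes passed 1% with limma, where 0% of all probes did. In female 3 the nostrils were on different slides, so its nostril difference is also one of slides. At an unadjusted p under 0.05 there were 23 (11.5%) against 5.89%, and 17 of the 23 were higher in B (8.5% of the tested OR genes, against 3.43% of all probes). The 4 smallest p belonged to Olr586 (Or5w16), Olr496 (Or8k24), Olr427 (Or1l4b) and Olr411 (Or1j1). Olr586 was higher in B in 7 of 7 rats, by 0.51 ± 0.11 on average, with an adjusted p from limma of 0.781. Its arrays A and B were at -0.43 and 0.06 in male 2, -0.42 and -0.04 in male 5, and -0.62 and 0.52 in male 6. In the females they were at 0.13 and 0.59 in rat 3, -0.20 and 0.50 in rat 4, -0.14 and 0.18 in rat 7, and -0.17 and -0.06 in rat 8. The count at an unadjusted p under 0.05 rested on single rats. Without female 4 it was 7 (3.5%, against 3.72% of all probes), without female 3 it was 15 (7.5% against 6.96%), and without female 8 it was 65 (32.5% against 8.33%). A difference of this nostril effect between the sexes was tested as an interaction, and 0 OR genes passed 1% while 15 (7.5%) had an unadjusted p under 0.05, against 2.36% of all probes.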

How the data were processed

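Olfactory epithelia of 8 rats were hybridised by the authors to 15 one-colour Agilent whole rat genome arrays. The deposited scanner files hold background-subtracted, detrended intensity per spot from Agilent Feature Extraction 9.5.1.1, per the file headers. The authors' deposited table holds each signal as a ratio to the median of its array and then of its probe, and was used as an alternative alone (r = 0.99995 with the recomputed ratios over 17992 bright probes).

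Here flagged spots were left out, each intensity was divided by its array median, values under 0.1 of the median were set to 0.1 (log2 of -3.32), and log2 was taken. Probes detected on at least 7 arrays were tested with limma 3.58.1 in R 4.3.3, with Benjamini-Hochberg adjustment over all tested probes at 1%: sex on 8 rat means, rats of one sex on 15 arrays, and nostrils with rat as a block, since nostrils A and B came from one animal. The procedure was tested on simulated data. Named genes were the brightest, the PCR-listed, those nearest the detection limit or a cluster end, those with the smallest p in each comparison and the widest ranges. The members, lists and tests were chosen with earlier results of these data known, and Nqo1, Omacs and Ncam2, distances and family medians after the values were seen. Alternatives covered scaling, floor, background, filter, blocks, the methods' t-test and leaving out each rat.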

Additional observations from a re-analysis of the deposited data

Results flagged for a closer look

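Within each sex the 4 rat means of the 59 named OR genes were searched for a rat that stood apart, by the gap to its nearest neighbour over the whole range. Of 115 groups of 4 rats 6 stood out, and chance alone gives about 1 in 20. In Olr662 female 3 was at -0.85 and the other females between -0.70 and -0.68 (gap 0.902 of the range). In Olr601 male 1 was at -1.19 and the other males between -2.77 and -2.50 (0.831), and in Olr493 female 8 was at -3.04 and the other females between -1.97 and -1.76 (0.835). Both of these genes were above background on 8 arrays. In Olr686 male 1 was at -0.999 against -1.86 to -1.80 (0.939), and in Olr442 at -0.25 against -1.12 to -1.02 (0.881). Olr747 in female 4 was at -3.08 with the other females at the floor of -3.32 (gap 1 of the range), and it was above background on 0 arrays. Male 1, which had 1 array, was the rat apart in 3 of these 6.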

How the results depend on the processing

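Between the sexes 0 OR genes passed 1% in 19 of 20 alternatives, and 1 (0.5%), Olr662, passed when the 15 arrays were taken as independent, where 3.74% of all probes did. At an unadjusted p under 0.05 the 27 genes became 15 with rat as a random block, 13 with slide as a fixed block, 12 with slide as a random block and 16 by the methods' t-test, while the share of all probes went from 17.1% to 20.1%, 22.8%, 20.4% and 16.2%. The 27 became 18 to 41 when each rat was left out (41 without male 2). Between rats of one sex 0 at 1% became 1 with 75th percentile scaling, 1 with quantile normalization and 1 with normexp background, each time Olr695 and with 4.73%, 5.26% and 5.73% of all probes against 2.79%, and 2 with no filter, Olr532 and Olr606, which were above background on 0 arrays and at the floor on 14 of 15. Their 52 at an unadjusted p under 0.05 became 17 without female 8, with a range of 17 to 67. Between nostrils the 23 became 14 with normexp background (7%, against 6.39% of all probes), 7 to 65 when each rat was left out (15 without female 3, 7 without female 4, 65 without female 8), and 10 without the replicate block (5% against 1.47%), that is without pairing nostrils by rat. The count at 1% was 0 whichever rat was left out, in all 3 comparisons. The cause of these moves was not tested. No paired analysis was possible because males and females share no rat numbers. The sex differences of 8 named genes kept their direction in 160 of 160 alternatives. These genes were picked for the smallest p in the same data and the alternatives reuse the same arrays, so this is no independent support. Their sizes moved, as for Olr471 at -0.62 to -0.07 and Olr662 at 0.17 to 0.53. The -0.07 came with slide as a fixed block, from 1 female array. Expressed genes numbered 172 to 235 and all pairs under 50 kb had a median r of 0.62 to 0.74, while the 23 pairs of different families had 0.44, and 0.32 relative to the median OR gene of each array. Grouping by protein sequence was not run. Signal near background limits the weakly expressed genes, and similar probes limit the 41 genes with a match of at least 80%.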
